A study of Mus musculus with 12 samples.

Results

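The synaptic vesicle and release machinery was described for 53 genes chosen by name. Of these, 52 have a row in the analysed table of 21769 rows and Sypl was not analysed here. The genes encode proteins of the vesicle membrane, the fusion machinery, the calcium sensors, the Rab3 switch, the active zone and vesicle retrieval. A filter on low counts left 49 of the 52 for testing, and Nsf, Unc13b and Erc1 did not pass it.

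The measurements come from mRNA, selected on oligo d(T) beads, of whole adult mouse cortex. Its 3 Tet1 genotypes carry the names KO, HxD and WT in the labels and have 4 libraries each. TET1 oxidises methylated cytosines in DNA, and the study's title names both catalytic and non-catalytic functions of the protein. HxD is also the name of the iron-binding residues of such enzymes, although the labels do not spell out the allele. The sources used here state neither how each allele was made nor the strain, the sex, the exact age or any pooling of animals. Separate animals per library are not stated either. The p-values therefore cover only how far these samples scatter, and that scatter may be technical.

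Summed estimated counts of a library ran from 5791642 to 9535409 in KO, 7767787 to 10347432 in HxD and 8310783 to 10915574 in WT, with KO 1 and KO 4 the shallowest. Tet1 itself held 0, 0, 0 and 0 estimated counts in KO 1 to 4, 1, 0, 63 and 67 in HxD 1 to 4 and 0, 0, 0 and 0 in WT 1 to 4. It was thus at 0 in WT as well as in KO, and does not check the labels. Cltc, the clathrin heavy chain of vesicle retrieval, had 0 in all but KO 1 and KO 3, so a gene listed at 0 may still have been expressed.

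A nerve terminal stores transmitter in vesicles, docks them at the active zone, and fuses them with the plasma membrane when calcium enters. The SNARE proteins drive the fusion, synaptotagmins sense the calcium, and RIM, Munc13, Bassoon, Piccolo and ELKS proteins hold and prime vesicles at the release site. Dynamin, endophilin, amphiphysin, synaptojanin and AP180 then retrieve the membrane. In the cortex these genes are expressed by neurons of nearly every class, and the choice between paralogs differs between cell types.

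Neuron markers were present in every library. The summed level of the 12 marker genes with a row (Rbfox3, Map2, Tubb3 and others) was 4904 to 5584 CPM in KO, 5153 to 5744 in HxD and 4691 to 5378 in WT, with no marker at 0 throughout a genotype. CPM values scale the counts of a library to a common total over the tested genes, corrected by TMM factors. Where levels of different genes are set side by side below, CPM was divided by the length in kilobases of the longest annotated transcript.

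Among the vesicle membrane proteins, the tetraspan protein synaptophysin was the most abundant per kilobase and synapsin III the least. Syp averaged 785 CPM per kilobase over all libraries and Syn3 3.06. Syp stood at 1982, 1829.7, 2209 and 2111 CPM in KO 1 to 4, 2549.8, 2317, 2288 and 2300.4 in HxD 1 to 4, and 2387, 2395, 2265 and 2145 in WT 1 to 4. Its libraries lay close together in every genotype, with coefficients of variation of 8.08% in KO, 5.26% in HxD and 5.14% in WT. Sv2a, the broadly used SV2 glycoprotein, made up 70.4% ± 5.57 of the summed SV2 level per kilobase in KO, 71.5% ± 6.88 in HxD and 64.4% ± 3.76 in WT (SD, n = 4 each). Sv2b took most of the rest, and Sv2c, known from the basal ganglia, stayed a minor form. Slc17a6, the vesicular glutamate transporter VGLUT2 that thalamic and other subcortical neurons use, averaged 15.3 CPM per kilobase, against 794 for the cortical transporter Slc17a7.

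In the fusion machinery, the plasma membrane SNARE Snap25 led with 951 CPM per kilobase, followed by the vesicle SNARE Vamp2 with 713. Snap25 stood at 4639, 4426, 5356 and 5680.1 CPM in KO 1 to 4, 3359.6, 6158, 2958 and 5652 in HxD 1 to 4, and 3656, 5791, 3317 and 4687 in WT 1 to 4. In HxD and WT, libraries 2 and 4 were the high ones, and the genotypes overlapped. Vamp1, the VAMP paralog of fast-firing neurons, held 2.63% ± 0.961 of the summed VAMP level per kilobase in KO, 1.58% ± 0.762 in HxD and 1.42% ± 0.651 in WT, and was the least abundant tested gene of this group. It stood at 137, 72.7, 64.4 and 134 CPM in KO 1 to 4, 47.2, 107, 41.2 and 66.9 in HxD 1 to 4, and 41.5, 72.7, 37.4 and 96.2 in WT 1 to 4. KO 1 and KO 4 were the highest of all 12 libraries, while KO 2 and KO 3 lay within the range of the others. Nsf, the ATPase that takes spent SNARE complexes apart, held 1 to 7 estimated counts per library and was not tested. At these counts no difference was detectable: exact two-sided permutation tests gave p = 0.486 for KO against WT, 0.457 for HxD against WT and 0.543 for KO against HxD, where 0.0286 is the smallest p possible.

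Synaptotagmin 1, the main sensor of fast release in forebrain, and synaptotagmin 11, which does not bind calcium, dominated the sensors. Syt1 averaged 364 CPM per kilobase, Syt11 316, and Syt7, a slow high-affinity sensor, 3.15. Syt1 stood at 1832, 1599, 2045 and 2263 CPM in KO 1 to 4, 1401, 1843, 967 and 1424 in HxD 1 to 4, and 2076, 2282, 1362 and 1969 in WT 1 to 4. HxD 3 was the lowest of the 12 libraries and the genotypes overlapped. Within the Rab3 group, the Rab3 effector rabphilin (Rph3a) and Rab3a stood level at 184 and 183 CPM per kilobase, Rab3c at 95.9 and Rab3b at 0.323. Rph3a stood at 756, 569, 660.2 and 882 CPM in KO 1 to 4, 512, 865, 662 and 1138 in HxD 1 to 4, and 616, 1053, 540.5 and 895 in WT 1 to 4. Its genotypes overlapped. Rab3b held 8, 9, 12 and 6 estimated counts in KO 1 to 4, 11, 9, 9 and 7 in HxD 1 to 4 and 8, 8, 11 and 9 in WT 1 to 4, near the limit of the filter in all of them.

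At the active zone, Rims3, a short RIM isoform gene, Ppfia3, which encodes liprin-alpha-3, and Bsn, the scaffold Bassoon, stood at 80.6, 79.4 and 78.7 CPM per kilobase. Rims3 stood at 735, 549, 503.9 and 820.5 CPM in KO 1 to 4, 202, 648, 322 and 607 in HxD 1 to 4, and 372, 556, 299 and 679 in WT 1 to 4. HxD 1 was the lowest library and KO 4 the highest, and in HxD and WT libraries 2 and 4 were the high ones. The Munc13 genes differed widely: the main cortical priming factor Unc13a averaged 62.4 CPM per kilobase and Unc13c, known from cerebellum, 0.734. Unc13c held 41, 56, 48 and 56 estimated counts in KO 1 to 4, 159, 0, 32 and 49 in HxD 1 to 4 and 60, 44, 29 and 81 in WT 1 to 4. Unc13b was listed at 0 in all WT libraries and in all but 1 library of each mutant, with 8 counts in KO 3 and 25 in HxD 1. For Unc13b the exact permutation p was 1 in all 3 comparisons. Against WT only 1 library of the groups compared was above 0, so the test could give no other value there. Erc1, a gene of the ELKS family, was listed at 0 in 2 KO, 3 HxD and 3 WT libraries and held 109 counts in KO 3. Its exact permutation p was 0.714 for KO against WT, 1 for HxD against WT and 0.429 for KO against HxD. With so few libraries above 0, no exact test of Erc1, nor that of Unc13b in KO against HxD, could have reached 0.05.

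Of the retrieval genes, Sh3gl2, which encodes endophilin A1, averaged 154 CPM per kilobase and Synj1, the phosphatase synaptojanin 1, 0.150. Sh3gl2 stood at 451, 445, 523 and 478 CPM in KO 1 to 4, 563, 450.3, 421 and 535 in HxD 1 to 4, and 521, 589, 519 and 462 in WT 1 to 4. Its coefficient of variation was 7.505% in KO, 13.7% in HxD and 9.96% in WT. Synj1 held 17, 8, 2 and 4 estimated counts in KO 1 to 4, 6, 5, 6 and 20 in HxD 1 to 4 and 3, 21, 3 and 12 in WT 1 to 4. These are low values for a gene that neurons need. RefSeq lists 34 transcripts of Synj1, and why its counts are low was not tested.

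**Figure D1:**
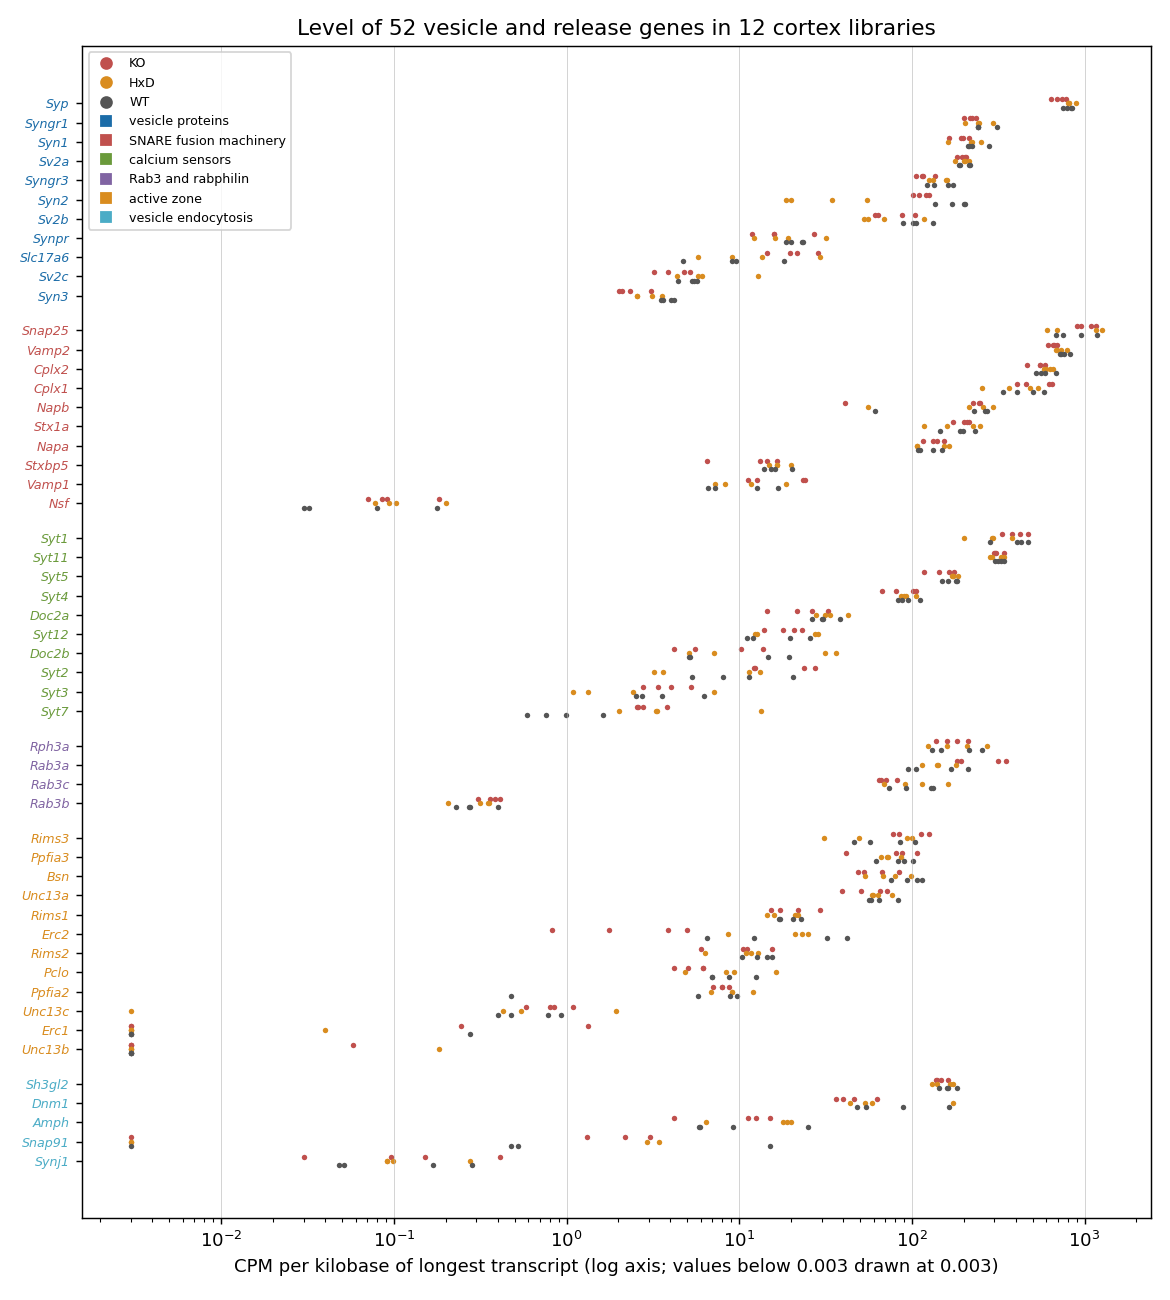
CPM per kilobase of the longest transcript (log axis) for the 52 genes, ordered within each role; each point is 1 library and colour gives the genotype. Snap25 (951 on average) and Syp (785) lie at the right, and Nsf, Synj1, Rab3b, Unc13b and Erc1 at the left.

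Comparing HxD with WT asks what the HxD allele alters. Of the 49 genes, 1 was called, and it was lower in HxD: Syn2, the gene of synapsin II, a phosphoprotein that tethers vesicles in the reserve pool. Over all 11693 tested genes 0.898% were called, and 0.411% were called lower. Syn2 stood at 213, 71.7, 133 and 77.3 CPM in HxD 1 to 4, against 662, 788, 768 and 527 in WT 1 to 4. Every HxD library lay below every WT library, and HxD 1 and HxD 3 were the higher ones of their genotype. Syn2 averaged 124 ± 65.7 CPM in HxD and 686 ± 119.8 in WT (SD, n = 4 each), a log2 fold change of -2.47 ± 0.32 (SE; edgeR quasi-likelihood test, adjusted p = 0.00224). In the bulk tissue, fewer cells of a type and less RNA per cell cannot be told apart. The call held in all 23 other settings, leaving out each library among them.

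The other synapsin genes did not pass the threshold. Syn1, the X-linked gene of synapsin I, stood at 824, 731, 529 and 722 CPM in HxD against 727, 915, 695 and 686 in WT, with a log2 fold change of -0.11 ± 0.14 (adjusted p = 0.999). The ranges of Syn1 overlapped. Syn2 thus made up 12.7% ± 5.58 of the summed synapsin level per kilobase in HxD, against 42.9% ± 3.74 in WT (SD, n = 4 each). The summed level itself was 250.2 ± 45.6 CPM per kilobase in HxD and 414 ± 57.4 in WT. The exons of Syn2 overlap those of Timp4 on the other strand in the GENCODE annotation, and those of Syn3 overlap Timp3, both genes of metalloproteinase inhibitors. Timp4 stood at 62.6, 51.7, 55.4 and 46.1 CPM in HxD against 43.1, 43.5, 62.7 and 55.3 in WT, with a log2 fold change of 0.08 ± 0.14 (adjusted p = 0.999). No source used here states the strand setting of the counting, so reads in the shared exons cannot be assigned to one of the 2 genes. GENCODE shows such an overlap for 19 of the 52 genes, among them Syn1 (with Araf), Syp, Rab3a, Erc2 and Pclo, so this limit is not particular to Syn2.

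RefSeq lists 3 transcripts of Syn2, and its promoter table gives 2 start sites for the gene. The row of the count table does not say which start the reads came from. Both are shown because Syn2 alone was called, and because TET1 acts on methylated CpG. Each window holds the 250 bases before the start, 5′ to 3′ on the strand of the gene, from RefSeq on build GRCm38.p6, with CpG dinucleotides in capitals:
Syn2 start 1, chr6:115134652-115134901, strand +: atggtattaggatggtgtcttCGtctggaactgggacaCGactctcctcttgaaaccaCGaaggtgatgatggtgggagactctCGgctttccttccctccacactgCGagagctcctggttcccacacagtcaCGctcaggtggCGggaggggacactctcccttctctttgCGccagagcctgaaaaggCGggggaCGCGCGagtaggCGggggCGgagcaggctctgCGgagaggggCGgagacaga
Syn2 start 2, chr6:115238744-115238993, strand +: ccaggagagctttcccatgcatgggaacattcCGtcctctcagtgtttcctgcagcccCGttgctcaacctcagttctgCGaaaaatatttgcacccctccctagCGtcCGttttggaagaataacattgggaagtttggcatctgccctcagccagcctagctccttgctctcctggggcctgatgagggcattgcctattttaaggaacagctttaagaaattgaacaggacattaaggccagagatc
The window of start 1 holds 16 CpG and that of start 2 holds 5. Over all 9231 tested genes with a window, the median was 16 CpG for the first listed start, and over the 41 vesicle and release genes with one it was also 16, with a range of 5 to 40. Syn1 had 27 CpG in its window and Syt1 had 8. The palindromic cAMP response element TGACGTCA was found in 2 of these 41 windows (Syn1 and Sh3gl2, 4.88%) and in 2.82% of windows of all tested genes. It was found in neither Syn2 window. Both strands are covered, since the motif is its own reverse complement. Methylation was not measured in these libraries, so the sequences are a description only.

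**Figure D2:**
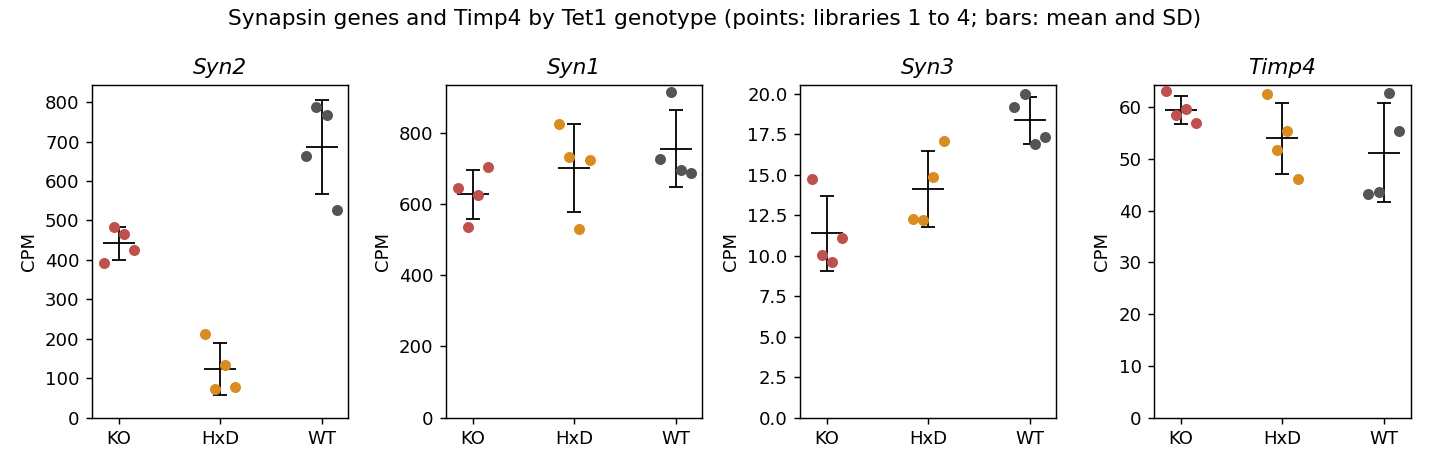
CPM of Syn2, Syn1, Syn3 and Timp4 in each library of KO, HxD and WT; bars give the mean and SD (n = 4). Syn2 averaged 442 in KO, 124 in HxD and 686 in WT, while Syn1 and Timp4 overlap between genotypes.

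Syt7 was the other gene whose HxD and WT libraries did not overlap, which makes 1 gene higher and 1 lower in HxD. Of all tested genes 3.48% did not overlap, 1.76% higher and 1.72% lower. It held 204, 102, 189 and 910 estimated counts in HxD 1 to 4, against 94, 53, 54 and 39 in WT 1 to 4. In CPM these were 22.0, 13.3, 22.1 and 88.8 in HxD and 10.7, 5.05, 6.56 and 3.91 in WT. HxD 4 stood far above the other HxD libraries, and the log2 fold change of 2.48 ± 0.58 missed the threshold (adjusted p = 0.136). Without HxD 4 it was 1.54 (adjusted p = 0.130). With all libraries, the DESeq2 Wald test gave an adjusted p of 0.00114 and limma-voom one of 0.507. Exons of Syt7 overlap those of Gm26859, annotated by GENCODE as a lincRNA, on the other strand.

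The remaining 47 tested genes had an unadjusted p of 0.05 or more in HxD against WT, while 4.05% of all tested genes had a lower one. The count below 0.05, 2 in all (all genes 473), was 6 without HxD 4 (all genes 625) and 4 with upper-quartile factors (all genes 486). It was 5 by DESeq2 (all genes 632) and 5 by limma-voom (all genes 550). The log2 fold changes ran from -0.16 to 0.08 in the fusion machinery and from -0.02 to 0.06 in the Rab3 group, where edgeR, DESeq2 and limma-voom called 0 genes and 0 had an unadjusted p below 0.05. At the active zone they ran from -0.38 to 0.58. Over all 49 genes the median was -0.02, with 21 above and 28 below WT, and over all tested genes it was 0.01, with 48.7% below WT. After Syn2 and Syt7, the lowest p-values were those of Syt1, Syn3 and Sv2b. Syt1 averaged 1409 ± 358 CPM in HxD and 1922 ± 395 in WT (log2 fold change -0.45 ± 0.21, adjusted p = 0.999), and Sv2b 408 ± 168 in HxD and 591 ± 98.9 in WT (-0.53 ± 0.27, adjusted p = 0.999). All 7 tested oligodendrocyte markers had log2 fold changes below 0, with overlapping sums of 1423 to 4234 CPM in HxD and 2002 to 4797 in WT. Microglia markers lay below WT for 6 of 7 genes, striatal markers above WT for 7 of 8 (median log2 fold change 0.65) and hippocampus markers above WT for 3 of 4 (0.78). Their part in the values above was not tested.

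Comparing KO with WT asks what loss of the protein alters. edgeR called 0 of the 49 genes, where 0.154% of all tested genes were called. The DESeq2 Wald test called 2, Erc2 and Syn3, beside 294 of all 11693 tested genes. By limma-voom 0 of the 49 and 0 of all tested genes were called. An unadjusted p below 0.05 was reached by 9 genes, 7 lower and 2 higher in KO, which is 18.4% of the 49. Of all tested genes it was 9.48%, 5.26% lower and 4.22% higher. These counts depend on single libraries: without KO 1 the p was below 0.05 for 5 of these genes and 1065 of all genes, without KO 2 for 6 of these genes and 861 of all genes, and without WT 3 for 6 of these genes and 953 of all genes. With only the 8 libraries compared it was 14 of these genes and 1171 of all genes, and by DESeq2 14 of these genes and 1372 of all genes. KO and WT libraries did not overlap for 7 genes (14.3%), 6 of them lower in KO, against 7.2% of all tested genes in either direction, 3.95% lower and 3.25% higher. The median log2 fold change was -0.12 with 31 of 49 below WT (63.3%), beside a median of 0.01 and 49.1% below WT for all tested genes.

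Of the vesicle proteins, 10 of 11 were below WT, with a median of -0.27, and Slc17a6 was the exception at 1.03 ± 0.51. Syn3, a synapsin of low level in adult brain, stood at 14.7, 10.02, 9.62 and 11.1 CPM in KO 1 to 4, against 19.2, 19.99, 16.9 and 17.3 in WT 1 to 4. All KO libraries lay below all WT libraries, and the log2 fold change was -0.69 ± 0.18 (adjusted p = 0.225, 0.00881 by DESeq2 and 0.228 by limma-voom). Syn2 stood at 392, 483, 466 and 425 CPM in KO against the WT values given above, again without overlap, with a log2 fold change of -0.64 ± 0.30 (adjusted p = 0.552). Syngr1, which encodes the vesicle protein synaptogyrin 1, stood at 907, 833, 938 and 987 CPM in KO and 1017, 1293, 1006 and 1005 in WT, a log2 fold change of -0.24 ± 0.12 (adjusted p = 0.596) without overlap. Syp and Syngr3 had log2 fold changes of -0.18 ± 0.07 and -0.32 ± 0.13, and their libraries overlapped. The vesicle SNARE Vamp2 stood at 1455, 1351, 1530.4 and 1466 CPM in KO and 1602, 1811, 1678 and 1587 in WT. The groups were close but did not overlap, and the log2 fold change of -0.20 ± 0.07 did not pass (adjusted p = 0.388).

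At the active zone, Erc2 had the largest log2 fold change of the 49 genes in KO against WT. Its product is the ELKS protein CAST, which binds RIM and Bassoon. Erc2 stood at 5.14, 31.1, 11.01 and 24.3 CPM in KO 1 to 4, against 262, 200.1, 40.3 and 76.4 in WT 1 to 4. WT 1 and WT 2 were far above WT 3 and WT 4, yet all KO libraries lay below all WT libraries. The log2 fold change was -3.01 ± 0.70 (adjusted p = 0.165, 3.7e-04 by DESeq2 and 0.390 by limma-voom), and RefSeq lists 37 transcripts of the gene. Bsn stood at 1339.8, 843, 773 and 1065 CPM in KO and 1701, 1821, 1502 and 1215 in WT, a log2 fold change of -0.63 ± 0.22 (adjusted p = 0.393). KO 1 lay inside the WT range. Pclo, the scaffold Piccolo, stood at 84.1, 102, 124 and 124 CPM in KO and 176, 139, 250.4 and 139 in WT without overlap (-0.70 ± 0.33, adjusted p = 0.544). Bsn and Pclo have the longest transcripts of the 49 genes, and when the trend of each library on transcript length was removed their log2 fold changes became -0.44 and -0.45. With that trend removed, the median of the 49 genes was -0.09.

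Of the 18 genes above WT in KO, 2 had an unadjusted p below 0.05, Rab3a and Syt7. Rab3a, the GTPase that marks vesicles for docking, stood at 544, 493, 298 and 285 CPM in KO 1 to 4, against 262, 331, 147 and 165 in WT 1 to 4. KO 1 and KO 2 were above every WT library, and KO 3 and KO 4 within the WT range. Its log2 fold change was 0.84 ± 0.30 (adjusted p = 0.406), while that of its paralog Rab3c was -0.60 ± 0.26 (adjusted p = 0.497). Rab3a thus made up 77.4% ± 6.55 of the summed Rab3 level per kilobase in KO and 56.6% ± 11.3 in WT (SD, n = 4 each). Syt7 stood at 17.1, 25.4, 16.9 and 18.3 CPM in KO, above all WT libraries, with a log2 fold change of 1.57 ± 0.56 (adjusted p = 0.409). KO and HxD are compared with the same WT libraries, so the values of Syt7 and Syn2 in both mutants do not stand for separate evidence. Values of markers of other cells and tissues stand beside these. Summed oligodendrocyte markers were 3279 to 3864 CPM in KO and 2002 to 4797 in WT, and summed astrocyte markers 4137 to 4472 in KO and 3311 to 4243 in WT. Of these lists, 5 of 7 and 8 of 9 tested genes were above WT, with Mal listed at 0 in all WT libraries. All 8 tested striatal markers were below WT, with a sum of 292 to 436 CPM in KO and 400.5 to 670.3 in WT, and so were all 5 thalamus markers, 3 of 4 endothelial and 5 of 7 microglia markers. Their part in the values above was not tested.

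**Figure D3:**
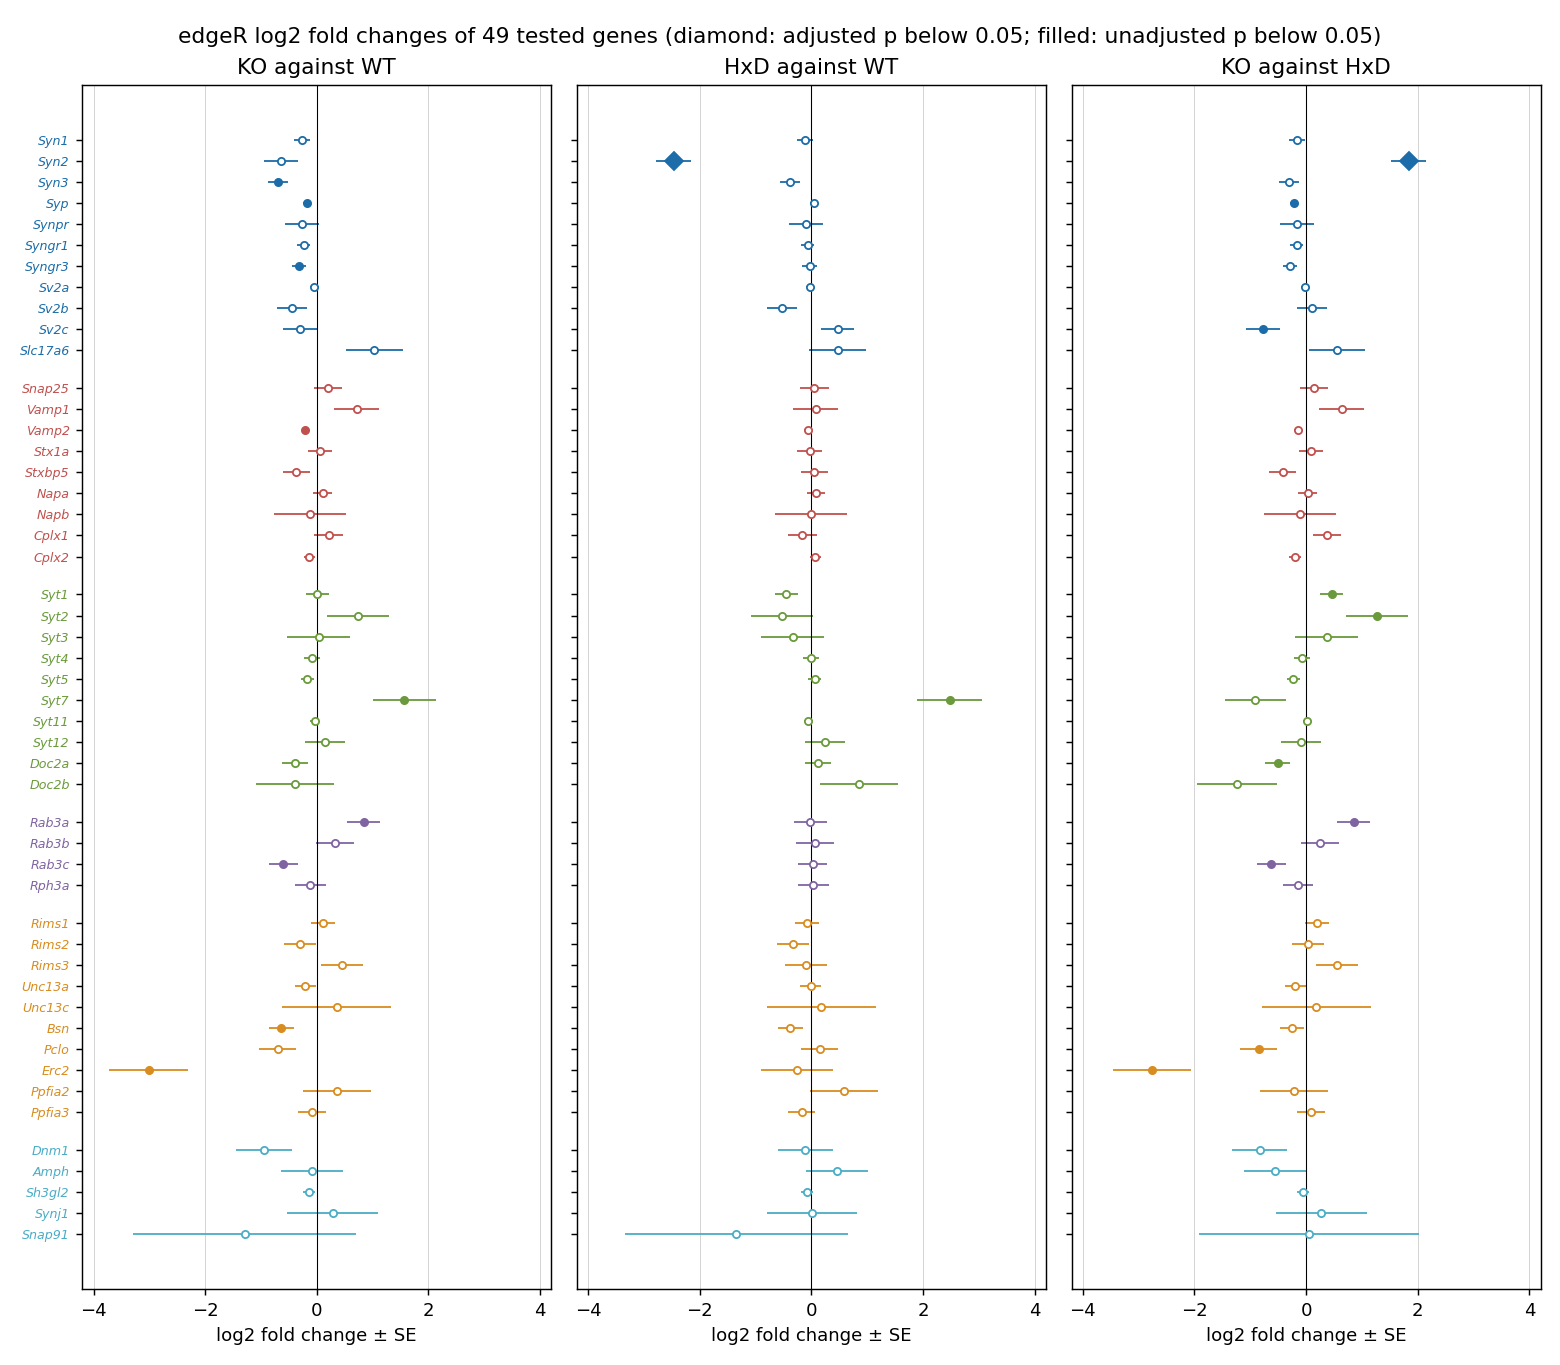
edgeR log2 fold changes with SE for the 49 tested genes, coloured by role, in KO against WT, HxD against WT and KO against HxD. Syn2 alone is past the adjusted threshold, at -2.47 in HxD against WT and 1.84 in KO against HxD.

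KO and HxD were also compared with each other. Syn2 was again the only gene of the 49 called, higher in KO, where 1.02% of all tested genes were called in either direction and 0.445% higher. It averaged 442 ± 40.9 CPM in KO and 124 ± 65.7 in HxD (SD, n = 4 each), and all KO libraries lay above all HxD libraries. The log2 fold change was 1.84 ± 0.31 (edgeR, adjusted p = 0.0172). The call was lost without HxD 3 (adjusted p = 0.0593), without KO 2 (0.0571) with only these 8 libraries in the fit (0.0852) and without KO 1 and KO 4 (0.101), while the log2 fold change stayed between 1.65 and 2.23 in all settings.

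Libraries of KO and HxD did not overlap for 4 of the 49 genes (8.16%), beside 7.59% of all tested genes, 3.97% higher and 3.62% lower. Besides Syn2 these were Rab3a, higher in KO, and Erc2 and Syp, lower in KO. Rab3a stood at the KO values given above, against 179, 221, 279 and 216 CPM in HxD (log2 fold change 0.85 ± 0.30, adjusted p = 0.316). Erc2 stood at 53.5, 131, 155 and 145 CPM in HxD, all above the KO libraries (log2 fold change -2.76 ± 0.69, adjusted p = 0.144, 9.8e-04 by DESeq2 and 0.292 by limma-voom). Syp differed little in size, with a log2 fold change of -0.22 ± 0.07 (adjusted p = 0.292, 0.0362 by DESeq2 and 0.321 by limma-voom). An unadjusted p below 0.05 was reached by 10 genes (20.4%) and by 11.6% of all tested genes. Without HxD 3 this was 5 of these genes and 1045 of all genes, without KO 1 6 of these genes and 1171 of all genes, and without KO 2 6 of these genes and 1104 of all genes. Below HxD lay 28 of the 49, beside 49.8% of all tested genes. Sv2c was among those with a low p, with 43.5, 35.1, 29.1 and 47.3 CPM in KO and 52.9, 55.6, 117 and 39.7 in HxD (-0.77 ± 0.30, adjusted p = 0.359). The high value was HxD 3, the library that also held the highest summed level of striatal markers, 1123 CPM. That sum was 292 to 436 CPM in KO, where Pde10a and Tac1 were listed at 0, and 259.9 CPM in the lowest HxD library. Over the marker lists, 8 of 8 striatal genes lay below HxD (median log2 fold change -2.31) and 4 of 4 hippocampus genes did (-0.77), while 7 of 7 oligodendrocyte genes (0.72) and 7 of 9 astrocyte genes (0.26) lay above. The part of neighbouring tissue or other cells in Sv2c, Syp and the other values was not tested.

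Several release genes varied widely between libraries of one genotype. Doc2b, a high-affinity calcium sensor of spontaneous release, stood at 24.3, 60.3, 44.7 and 18.3 CPM in KO 1 to 4, 137, 31.1, 159 and 22.3 in HxD 1 to 4, and 64.3, 22.8, 84.2 and 22.4 in WT 1 to 4. In HxD and in WT, libraries 1 and 3 were high and libraries 2 and 4 low. Syt2, the synaptotagmin of fast inhibitory terminals in cortex, showed the opposite order at 163, 84.2, 85.1 and 189 CPM in KO 1 to 4, 22.0, 90.7, 24.8 and 78.1 in HxD 1 to 4, and 36.8, 78.5, 55.2 and 141 in WT 1 to 4. Pvalb, a marker of fast-spiking interneurons, stood at 199.9, 136, 131 and 189.8 CPM in KO 1 to 4, 36.3, 169.9, 18.6 and 90.2 in HxD 1 to 4, and 52.2, 96.5, 72.6 and 174 in WT 1 to 4. It was high in the libraries in which Syt2 was high, and also highest in KO 1 and KO 4 of their genotype. Slc17a6 stood at 59.6, 119, 89.9 and 81.7 CPM in KO 1 to 4, 37.6, 55.9, 121 and 23.9 in HxD 1 to 4, and 39.6, 19.5, 37.4 and 75.0 in WT 1 to 4. HxD 3 and KO 2 were its highest libraries. Summed thalamus markers were 27.7 to 38.2 CPM in KO, 42.8 to 91.1 in HxD and 43.8 to 81.8 in WT, with Tcf7l2 listed at 0 throughout KO, Prkcd and Tnnt1 throughout HxD, and Tnnt1 throughout WT. The part of dissection in these values was not tested.

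**Figure D4:**
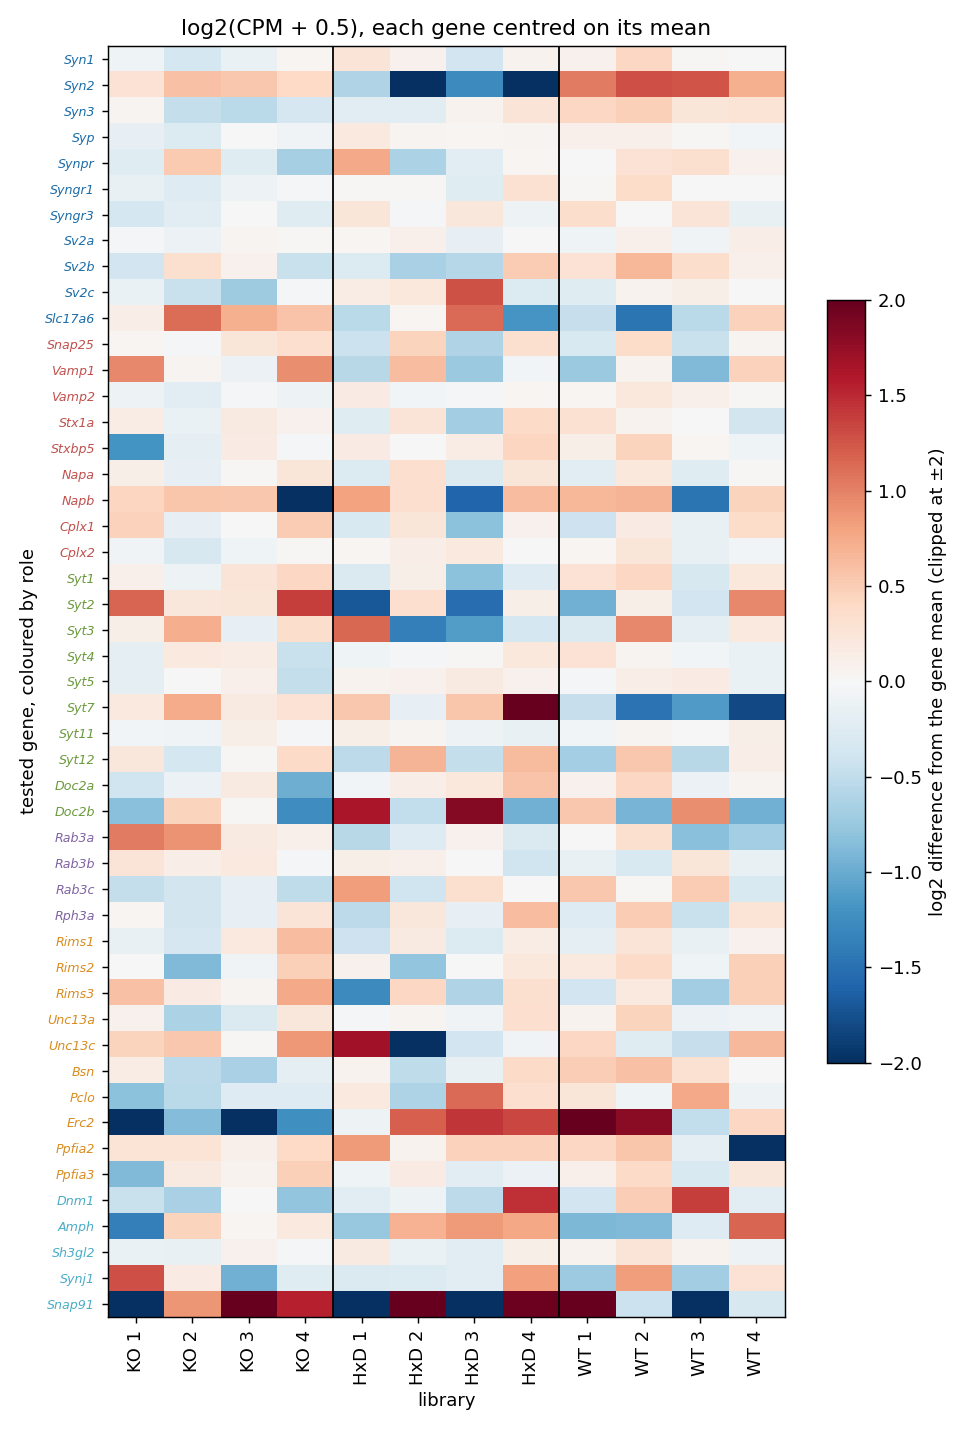
log2(CPM + 0.5) of the 49 tested genes, each centred on its mean, in the 12 libraries (KO, HxD, WT from left to right). Syn2 is low across HxD, Erc2 is low across KO, and Doc2b, Syt2 and several other genes alternate between libraries within HxD and WT.

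Steps between values within a genotype were common. Snap91, the gene of the clathrin assembly protein AP180, held 0, 53, 153 and 68 estimated counts in KO 1 to 4, 0, 141, 0 and 160 in HxD 1 to 4 and 710, 27, 0 and 28 in WT 1 to 4. It was listed at 0 in 1 KO, 2 HxD and 1 WT library, and WT 1 held the most counts. Its log2 fold change against WT was -1.29 in KO and -1.35 in HxD. With the replicate number as a block these became 1.33 and 0.44. Napb, the neuronal SNAP cofactor of Nsf, stood at 1003, 1093, 1081 and 181 CPM in KO 1 to 4, 1296, 942, 246 and 1147 in HxD 1 to 4, and 1178, 1195, 270.3 and 1017 in WT 1 to 4. KO 4, HxD 3 and WT 3 were each several times below the other libraries of their genotype. Its paralog Napa kept between 268 and 414 CPM in all 12 libraries. Ppfia2, the gene of liprin-alpha-2, had 78.6, 86.6, 51.0 and 4.21 CPM in WT 1 to 4, with WT 4 far below the rest, against 62.8 to 77.6 in KO and 61.4 to 106 in HxD. Dnm1, the neuronal dynamin, had 248, 269, 202 and 797 CPM in HxD and 222, 407, 754 and 251 in WT, with HxD 4 and WT 3 high, against 167 to 289 in KO.

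The widest ratio of the highest to the lowest library within a genotype, on CPM + 0.5, was at least 4-fold for 12 of the 49 genes (24.5%) and for 25.5% of all tested genes. Among genes with 1 transcript, 1 of 8 (Doc2b) and 12.6% of all tested genes were that wide. Among genes with at least 10 transcripts these were 5 of 12 and 48.5%. The median level was lower in the second class, 72.4 CPM against 566 for the vesicle and release genes and 20.6 against 29.2 for all tested genes. The classes thus differed in level as well as in transcript number. At the other end, Syp, Sv2a, Vamp2 and Syt11 had a coefficient of variation below 10% in all 3 genotypes, which is 8.16% of the 49 and was 6.71% of all tested genes. Sv2a stood at 844, 792, 896 and 875 CPM in KO 1 to 4, 882, 929, 773 and 867 in HxD 1 to 4, and 816, 925, 825 and 944 in WT 1 to 4. Its log2 fold changes were -0.04 ± 0.08 in KO and -0.02 ± 0.08 in HxD against WT.

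**Figure D5:**
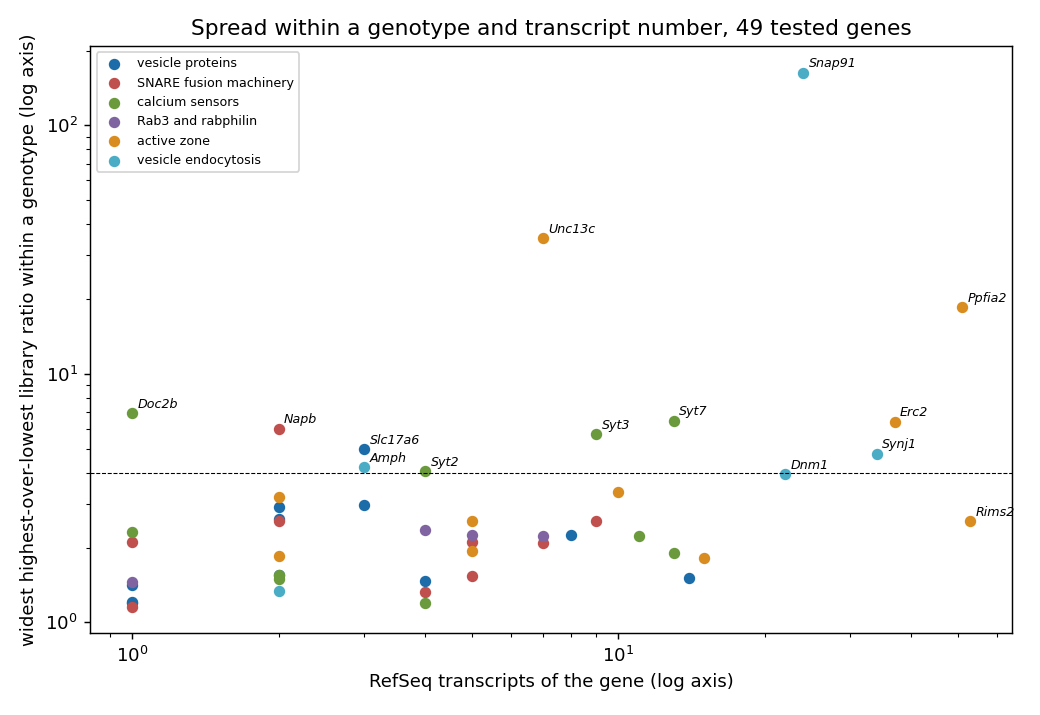
Number of RefSeq transcripts against the widest ratio of the highest to the lowest library within a genotype (both log axes) for the 49 tested genes, coloured by role; the dashed line marks 4-fold. Snap91 reaches 163, a ratio that rests on a library at 0 and the added 0.5, and Vamp2, with 1 transcript, lies lowest at 1.16.

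Other genes of the pathway were taken from a list of further SNARE, vesicle, active zone and endocytosis genes, of which 79 were tested and are counted here. In HxD against WT, 1 was called, and it was lower: Fcho2, which encodes an early endocytic adaptor. Fcho2 stood at 2.69, 2.73, 2.69 and 2.93 CPM in HxD 1 to 4, against 49.97, 32.9, 33.8 and 47.0 in WT 1 to 4. Its estimated counts were 25, 21, 23 and 30 in HxD and 438, 346, 278 and 469 in WT, a step between all libraries of the groups, with a log2 fold change of -3.88 ± 0.18 (edgeR, adjusted p = 3.3e-07). It stood at 36.7, 45.4, 50.2 and 45.6 CPM in KO 1 to 4, all above the HxD libraries, with a log2 fold change of 4.00 ± 0.18 in KO against HxD (adjusted p = 2.3e-07). Syn2 and Fcho2 were thus each lower in HxD than in both other genotypes. Syn2 kept 1980, 552, 1134 and 792 estimated counts in HxD 1 to 4. No source used here states how counts were assigned to these rows, so the values are differences in the table.

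In KO against WT, edgeR called 0 of the 79 other genes, with 15 at an unadjusted p below 0.05 (all tested genes 9.48%), DESeq2 called 3 (Scamp5, Svop and Dnm2) beside 294 of all genes, and limma-voom called 0. They lay below WT for 55 of 79 genes, with a median log2 fold change of -0.11, where 49.1% of all tested genes lay below WT with a median of 0.01. Among the other vesicle genes, 22 of 28 were below WT, with 9 of them at an unadjusted p below 0.05. Below WT were also 15 of 19 other SNARE and priming genes, 13 of 21 other endocytosis genes and 5 of 11 other active zone genes. KO and WT libraries did not overlap for 6 of the 79 genes (7.59%), beside 7.2% of all tested genes. Scamp5, a vesicle membrane protein, stood at 602, 569, 588 and 582 CPM in KO 1 to 4, against 638, 679, 663 and 654 in WT 1 to 4. The groups did not overlap and the log2 fold change was -0.17 ± 0.06 (edgeR, adjusted p = 0.360). Beside this, the median over the 12 tested neuron markers was 0.10, with 6 below WT. Over the cortical excitatory neuron markers it was -0.09, with 7 of 9 below WT, and over the interneuron markers 0.002, with 4 of 9 below. Their part in the vesicle gene values was not tested.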

How the data were processed

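Cortex RNA was measured in 12 libraries, grouped by the genotype in the labels. The values are estimated counts per gene symbol that the authors deposited without normalization. Being whole numbers, they were not changed by rounding, and they were taken as estimates since housekeeping rows such as Gapdh hold 0. The submitters' processing notes name STAR 2.7.1a, StringTie 2.2.3, Trim Galore 0.6.7, FastQC and SAMtools 1.9, and builds GRCm39 and mm10, with no role or order. No source used here states the counting step or strand setting. Repeated symbols (56 rows, none among the 52 genes) were left out.

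Testing used edgeR 4.0.16 in R 4.3.3 (quasi-likelihood, robust), TMM factors and filterByExpr with minimum count 10, leaving 11693 genes. One model held all libraries and genotype alone. Tests were two-sided, adjusted by Benjamini-Hochberg over all tested genes, with a threshold of 0.05. The SE is the absolute log2 fold change over the square root of F. Genes below the filter had an exact permutation test on CPM. Depth bears on counting error only, and no molecular identifiers are named in the labels. The script was tested on simulated data.

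The genes and gene lists were chosen with earlier results of these data known. The rule for genes given in full takes called genes, genes with an unadjusted p below 0.05 and no overlap, the highest and lowest tested gene of each role, and genes that jump between 0 and at least 100 counts within a genotype. Further genes were named after their values were seen. One gene of the wider pathway list is not reported here and is left out of that list's counts. Lengths are of the longest GENCODE vM21 transcript; transcript numbers (52 genes matched) and promoter windows (41 matched) are from RefSeq, GRCm38.p6. Alternatives were other scalings and count filters, DESeq2 1.42.0, limma-voom (limma 3.58.1), fits of 8 libraries, a block on replicate number, removal of the length trend, and leaving out libraries.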

Additional observations from a re-analysis of the deposited data

Results flagged for a closer look

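A library far from the other 3 of its genotype was looked for in each of the 156 sets of 4 libraries, and 14 sets of 11 genes held one by Dixon's ratio of gap to range. For normally distributed values, chance alone marks about 1 in 20 sets, and these CPM values need not be so distributed. A set with 0 in all but 1 library is always marked, as for Unc13b and Erc1 below. The 14 sets are therefore not set against that share. Napb stood at 181 CPM in KO 4, against 1003 to 1093 in the other KO libraries. Snap91 stood at 81.0 CPM in WT 1, against 0 to 2.81 in the rest of WT. Dnm1 stood at 797 CPM in HxD 4, against 202 to 269, and Syt7 at 88.8 in the same library, against 13.3 to 22.1. Synj1 was high there too, at 1.95 CPM on 20 counts. Syt7 was also high in KO 2, at 25.4 CPM, against 16.9 to 18.3. Amph, which encodes amphiphysin, was low in HxD 1, at 21.6 CPM against 60.4 to 67.3.

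Smaller steps were marked for Syp in HxD 1 (2549.8 CPM against 2288 to 2317), Syngr1 in WT 2 (1293 against 1005 to 1017) and Syt5 in HxD 3 (325 against 300.4 to 304). Rows with 0 in all other libraries of the genotype were Unc13b in KO 3 (0.856 CPM) and HxD 1 (2.69), and Erc1 in HxD 3 (0.351) and WT 4 (2.41).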

How the results depend on the processing

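Over 23 alternatives per comparison, Syn2 kept its direction in both comparisons in which it was called, and its call in HxD against WT held in all of them (log2 fold change -2.87 to -2.28). Syn2, Syt7, Erc2, Syn3, Vamp2, Syp and Rab3a were followed across these settings and kept their direction in each, in the comparisons in which the rule names them. The DESeq2 Wald test called 2 vesicle and release genes in HxD against WT, 2 in KO against WT and 3 in KO against HxD, and 173, 294 and 398 of all genes. In KO against WT the count over all genes, 18 by edgeR, was 0 by limma-voom and 0 with only the 8 libraries compared (1145 and 1171 at an unadjusted p below 0.05). In KO against HxD, 0 vesicle and release genes were called with only the 8 libraries compared (7 at an unadjusted p below 0.05) and 0 without KO 1 and KO 4, the shallowest libraries (10 at that level), a fit added after the data were seen. Over the 23 alternatives, 84 to 398 of all genes were called in KO against HxD. Leaving out 1 library gave 0 to 1 of these genes and 97 to 137 of all genes in KO against HxD. In KO against WT it gave 0 of these genes and 12 to 35 of all genes, the highest without WT 4. The cause was not tested. The median log2 fold change of the 49 genes ranged from -0.16 to -0.07 in KO against WT and from -0.08 to 0.003 in HxD against WT.

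Correlations of the deviations of libraries with the same replicate number ran from -0.07 to 0.08, which shows little likeness by number. Sets of libraries that share a step across numbers were not tested. With the replicate number as a block, Syn2 was called in HxD against WT and in KO against HxD (log2 fold change -2.54 and 1.93), and no vesicle or release gene was added. Of all genes, 74 were then called in HxD against WT, 95 in KO against HxD and 5 in KO against WT. Correlation was highest with the own number for 2 of 4 libraries in HxD against WT, 0 of 4 in KO against WT and 2 of 4 in KO against HxD. HxD 1 and HxD 3 correlated best with WT 3, and HxD 2 and HxD 4 with WT 4. Doc2b and Syt2 show the same split of libraries 1 and 3 from 2 and 4. So do Snap25, Vamp1, Cplx1, Rph3a, Rims3 and Syt12, among others, in both HxD and WT. Syn2 shows it within HxD but not within WT, and Syp and Sv2a show it in neither. Its part in the comparisons was not tested. The rows of Nsf, Rab3b, Synj1, Unc13b and Erc1 hold few or no counts in most libraries, and no difference in them passed its test. For Unc13b and Erc1 the exact test could not reach 0.05 in any comparison, since too few libraries were above 0. Why these counts are low was not tested.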
